A study of Mus musculus with 3 samples.

Results

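The Eomes locus was examined as the 400 kb neighbourhood of the gene that encodes Tbr2, on mouse chromosome 9 from 118200000 to 118600000 (build mm9), with the gene body near 118.387 to 118.395 Mb. Every listed peak with its midpoint in that window was taken as a member. This gave 13 of the 14539 Tbr2 peaks and 3 of the 2640 Neurog2 peaks of the series, or 13 of 778 Tbr2 and 3 of 152 Neurog2 peaks of chromosome 9. Within the window, members were taken by position and not by any value of a peak. The locus itself was chosen with the crowding of Tbr2 peaks there already known, so its rank by peak number is a description.

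Tbr2 is a T-box transcription factor, a family that binds DNA through a conserved domain and recognises short sites with a GTGTGA core. In the embryonic cerebral cortex it is known as the marker of intermediate progenitors, the cells that arise from radial glia and divide to give excitatory neurons. Neurog2 is a proneural basic helix-loop-helix factor of the same lineage. It binds E-boxes, written CANNTG, and is known to act before Tbr2 in the sequence of factors that leads from radial glia to neurons.

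Binding was mapped by sequencing of immunoprecipitated chromatin (ChIP-seq) from the cerebral cortex of C57BL/6 mouse embryos at E14.5, a stage at which excitatory neurons are being produced. The series held 3 libraries: 1 with a commercial antibody against Tbr2, 1 with a non-commercial antibody against Neurog2, and 1 of input chromatin. All groups shared strain, stage and tissue, and no genetic or drug treatment is given in the labels. Chromatin of all 3 libraries was crosslinked with both DSG (a crosslinking agent, 2 mM for 45 min) and 1% formaldehyde (10 min). The cortex holds many cell types, so a peak does not say in which cells the factor was bound. Each factor had 1 library, hence no value below has a replicate error and no test was made. Tags are the sequence reads that the authors counted inside a peak, fold change is the enrichment that their peak caller gave, and both describe a peak within its own list. Library depth is unknown, so tags were not compared between the factors.

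The RefSeq entries are of another build (GRCm38.p6). They served for the names and order of neighbouring genes, the strand of Eomes and the promoter sequences, and not for distances of peaks. The gene lies on the + strand in RefSeq, so lower coordinates are called upstream here. On the upstream side the nearest entries were Gm33408, a long non-coding RNA that overlaps Eomes, and the pseudogene Gm22479. The nearest protein-coding genes there were LOC115486419 and Cmc1, which encodes a factor of mitochondrial cytochrome c oxidase assembly. On the downstream side came Gm33460, also a long non-coding RNA, and the protein-coding genes Golga4, which encodes a golgin of the trans-Golgi network, and Itga9, which encodes an integrin alpha chain. Which of these genes a peak acts on cannot be read from its position.

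The promoter of Eomes is shown because listed Tbr2 peaks lie close to the gene start, which is known to 1 kb only. The RefSeq sequence (GRCm38.p6, chr9:118477939-118478238, + strand) holds 250 bases before the start and 50 after it. Capitals mark TATATAA, a match to the TATA box that helps to place the start of transcription, and this motif was looked for after the sequence was seen.

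Eomes promoter: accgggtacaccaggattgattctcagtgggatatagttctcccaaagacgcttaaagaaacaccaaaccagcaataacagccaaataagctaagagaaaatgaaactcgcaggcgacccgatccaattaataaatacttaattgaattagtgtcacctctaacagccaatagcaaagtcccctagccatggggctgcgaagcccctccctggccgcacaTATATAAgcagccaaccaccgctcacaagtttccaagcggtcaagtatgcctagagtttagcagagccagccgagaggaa

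None of the letters searched for the factors themselves was found on either strand of these 300 bases: the T-box core GTGTGA, the longer T-box form TCACACCT, the general E-box CANNTG and its forms CAGATG and CAGCTG, both of which are also counted under CANNTG. Among the 32851 RefSeq promoters of the same length, GTGTGA was present in 4760, TCACACCT in 1.28%, CANNTG in 72.3%, CAGATG in 17.2% and CAGCTG in 16.3%. The TATATAA match on the + strand began 30 bases before the start, and 3.24% of the promoters held that motif on either strand. Another TATA form, TATAAA, was also looked for after the sequence was seen. It was absent from these bases on both strands and present in 13.6% of the promoters. The sequence had a GC content of 47.3%, against a median of 52.7% over the promoters. The searched letters are a description of this window alone, and the sequence under the peaks themselves was not analysed here.

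Tbr2 peaks lay on both sides of Eomes and along the gene itself. There were 7 upstream, 4 that overlapped the gene body and 2 downstream. Set against length, the 187 kb upstream held 3.74 Tbr2 peaks per 100 kb, and the 205 kb downstream held 0.976. The gene body of about 8 kb was covered by Tbr2 peaks over 3.62 kb, or 45.2%, whereas the whole window was covered over 2.62%. All 3 Neurog2 peaks were upstream, and the gene body and the downstream flank held none.

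**Figure D1:**
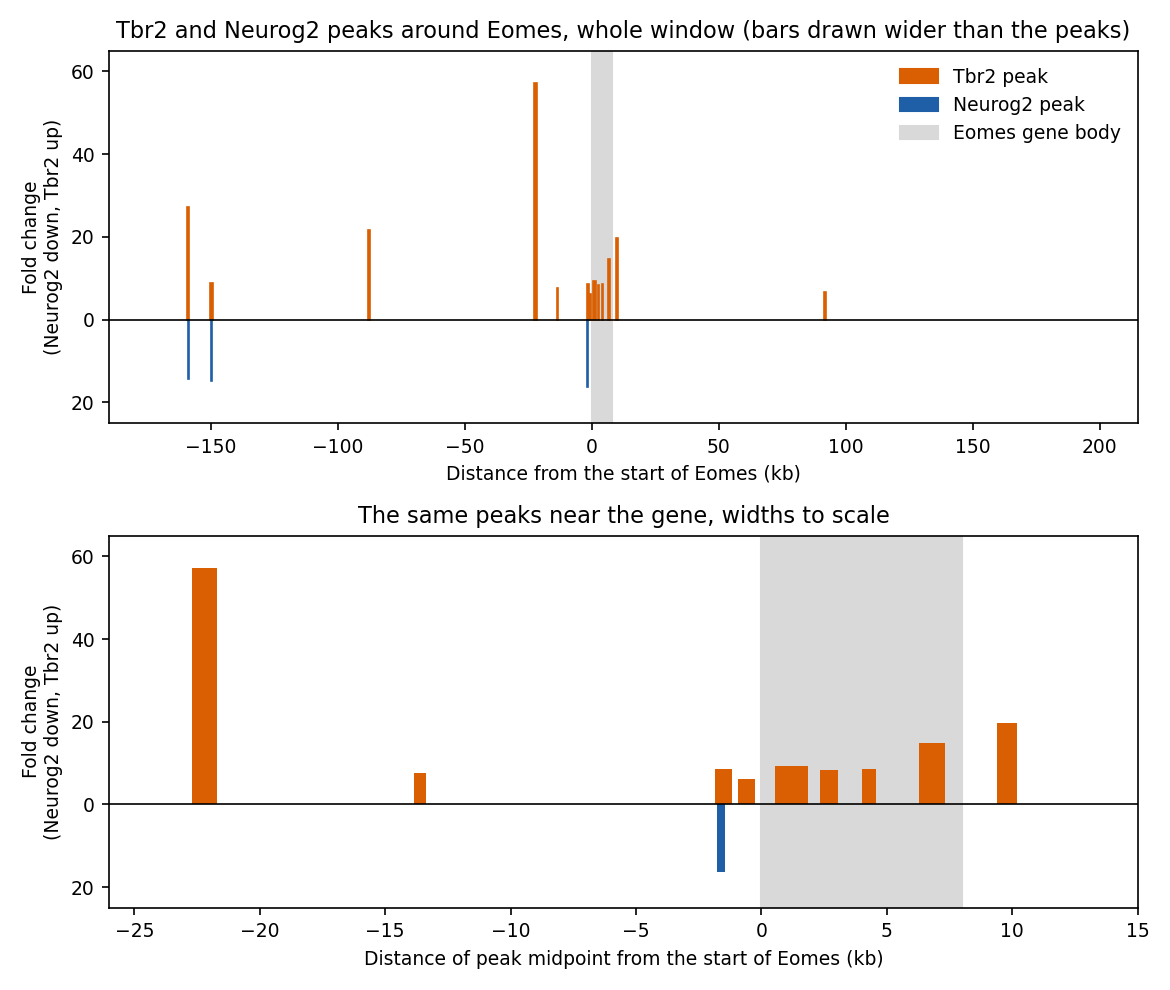
Fold change of each listed peak (bars up for Tbr2, down for Neurog2) against its distance from the start of Eomes in kb, for the whole window (top) and near the gene with widths to scale (bottom); the grey band is the gene body. The highest bar, 57.3, stands 22.2 kb upstream without a Neurog2 peak, and 4 Tbr2 peaks cross the grey band.

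The leading Tbr2 peak of the locus by fold change stood 22.2 kb upstream of the gene start, on chromosome 9 at 118364273 to 118365229. It was 957 bp wide and had 185 tags, a fold change of 57.3 and a p-value of 1.08e-143 in the authors' list. By p-value it was rank 100 of the 14539 Tbr2 peaks, by fold change rank 30 and by tags rank 208. On chromosome 9 it was rank 3 of 778 by fold change. This peak alone held 20.8% of the 889 Tbr2 tags counted in peaks of the window. The nearest Neurog2 midpoint was 20.6 kb away, at 1.6 kb upstream of the gene start. Of the 100 Tbr2 peaks with a p-value no larger than this one, itself included, 68 overlapped a Neurog2 peak, so the peak belongs to the 32.0% that did not.

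Along the transcribed part of the gene 4 Tbr2 peaks followed each other. The first was centred 1.2 kb after the start, on chromosome 9 at 118387559 to 118388884. With 1326 bp it was the widest member, wider than 96.8% of the Tbr2 list. It had 87 tags, more than 88.0% of the list, but a fold change of 9.22, which was above only 45.7% of it. The next peaks, at 118389326 to 118390050 and 118390999 to 118391543, were weaker, with 29 and 35 tags and fold changes of 8.32 and 8.58. The last, at 118393247 to 118394269 and 6.8 kb after the start, had 109 tags and a fold change of 14.75, with a p-value of 1.57e-56. In tags the first and last of the 4 stood above the pair between them. Together the 4 held 260 tags, 29.2% of the tags in the window's Tbr2 peaks.

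Around the gene start, neighbouring Tbr2 peaks were 882 bp apart. The one on the upstream side, at 118386029 to 118386676, had 36 tags and a fold change of 6.09, the lowest of the locus, and it exceeded 7.61% of the list by fold change. Since the gene start is given to 1 kb only, it was not settled whether the start lies in that gap or in a peak, or whether either peak reaches the 300 bases printed above. Another Tbr2 peak ended 145 bp before that of the lowest fold change, at 118385199 to 118385883, with 31 tags and a fold change of 8.65. Just past the other end of the gene, at 118396409 to 118397192, a peak 9.8 kb from the start had 69 tags and a fold change of 19.7, above 88.4% of the list.

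The remaining members were farther out. The Tbr2 peak 159.0 kb upstream, at 118227533 to 118228567, had 145 tags, a fold change of 27.25 and a p-value of 1.01e-72, and was rank 546 by p-value. Its neighbour 149.7 kb upstream, at 118236857 to 118237685, had 42 tags and a fold change of 8.76. Both carried a Neurog2 peak, and they differed in Tbr2 tags by 145 against 42. The peak 87.8 kb upstream, at 118298736 to 118299610, had 74 tags and a fold change of 21.66, without a Neurog2 peak. Between the strongest peak and the gene stood the narrowest member, 479 bp at 118373194 to 118373672, with 22 tags, the lowest number in the locus, and a fold change of 7.52. Downstream, beyond 81.3 kb without a listed peak, was the last member, at 118478488 to 118479065, with 25 tags and a fold change of 6.73.

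**Figure D2:**
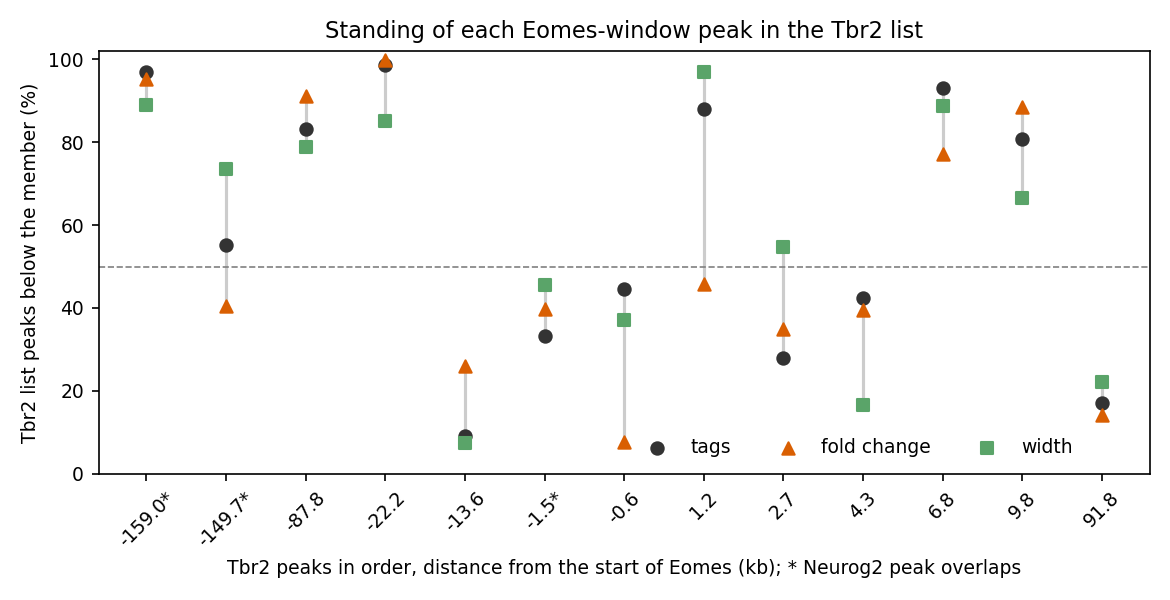
Percentage of the 14539 Tbr2 peaks that lie below each of the 13 members in tags (circles), fold change (triangles) and width (squares), with members in order along the chromosome and labelled by distance from the gene start in kb; an asterisk marks an overlapping Neurog2 peak and the dashed line is 50%. The members 159.0 and 22.2 kb upstream are above 85% of the list in all 3 measures. Those 13.6 kb upstream and 91.8 kb downstream are at or below 26.0% in all 3.

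The members held both strong and weak peaks of the list. The median fold change of the 13 was 8.76 (range 6.09 to 57.3), against 9.58 over the whole Tbr2 list and 9.47 on chromosome 9. A fold change of at least 10 was met by 5 of 13, and by 48.0% of the list. The median number of tags was 42.0 against 38.0 in the list, and the median width 784 bp against 703 bp. The median p-value was 1.00e-13 against 9.82e-12. Above the upper quartile of the list, which 1 in 4 listed peaks exceed, were 6 of 13 members in tags, 6 in strength by p-value and 5 in fold change. The members were uneven in strength: 3 of 13 were above the 90th percentile of the list in tags and 3 in fold change, and 2 of 13 were below its lower quartile in each. The 7 peaks within 2 kb of the gene body had fold changes of 6.09 to 19.7 (median 8.65), and the other 6 had 6.73 to 57.3 (median 15.2). These ranges overlap, and the peaks nearest to the gene were not the ones with the highest fold change.

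**Figure D3:**
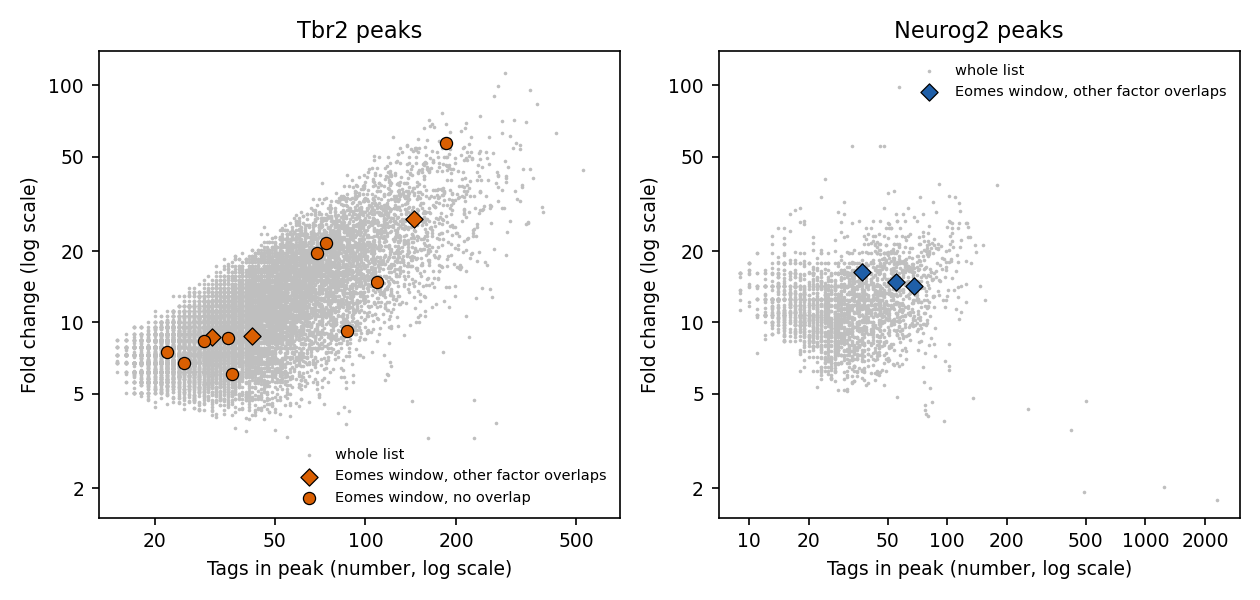
Fold change against tags per peak, both on log axes, for the Tbr2 list (left) and the Neurog2 list (right); grey points are all listed peaks, diamonds are members that the other factor's peak overlaps and circles members without one. The 13 Tbr2 members run from 22 to 185 tags, where the whole Tbr2 list runs from 15 to 527. The 3 Neurog2 members lie at fold changes of 14.29 to 16.34.

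Neurog2 peaks met Tbr2 peaks at 3 places of the locus. Of the 13 Tbr2 peaks 3 overlapped a Neurog2 peak by at least 1 bp, or 23.1%, with an exact 95% binomial interval of 5.04 to 53.8. That interval covers counting error only and takes the peaks as independent draws, which neighbouring peaks of 1 library are not. The share was 14.0% in the whole Tbr2 list and 15.7% on chromosome 9, and the difference from these was not tested. From the other side, all 3 Neurog2 peaks lay on a Tbr2 peak, where the share of the whole Neurog2 list was 81.3%. Each of the 3 lay wholly inside its Tbr2 peak, as did 79.8% of the Neurog2 list.

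The Neurog2 peak nearest to the gene stood 1.6 kb upstream of the start, at 118385220 to 118385549, inside the Tbr2 peak of 31 tags. It had 37 tags, a fold change of 16.34 and a p-value of 3.24e-18, and its fold change was above 84.7% of the Neurog2 list. The Tbr2 peak around it was above 39.8% of the Tbr2 list by fold change. Its midpoint was 156 bp from that of the Tbr2 peak, and 479 bp separated it from the next Tbr2 peak, that with the lowest fold change of the locus. Among the 7 Tbr2 peaks within 2 kb of the gene body this was the only one with a Neurog2 peak.

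The other Neurog2 peaks formed a pair 158.9 and 149.8 kb upstream. The first, at 118227886 to 118228339, had 68 tags, a fold change of 14.29 and a p-value of 3.56e-31, with its midpoint 62.5 bp from that of the Tbr2 peak. The second, at 118236963 to 118237391, had 55 tags, a fold change of 14.78 and a p-value of 4.47e-25, and midpoints were 94.0 bp apart. By tags these exceeded 91.4% and 84.1% of the Neurog2 list, while the Tbr2 peaks around them exceeded 96.8% and 55.3% of the Tbr2 list. The sites thus stood close together in the Neurog2 list and apart in the Tbr2 list. By p-value the 3 Neurog2 members were ranks 204, 358 and 674 of 2640. In fold change they spanned 14.29 to 16.34 and all stood above the list median of 11.8.

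The spacing of Tbr2 peaks was short near the gene. Gaps between neighbouring members had a median of 5.05 kb (range 145 bp to 81.3 kb, 12 gaps), against 58.6 kb on chromosome 9 and 66.6 kb in the whole list. Gaps under 3 kb made up 6 of the 12, and 8.88% of those on chromosome 9. Peaks joined across gaps of up to 10 kb gave a run of 7 Tbr2 peaks over 12.0 kb, from 118385199 to 118397192, which spans the gene with both of its ends. Of the whole list 0.337% of peaks were in runs of at least 7, and no run held more. There were 7 such runs among 11929. Ordered by summed tags, the leading 4 lay on chromosome 1 (626 tags over 23.2 kb), chromosome 17 (522 over 28.9 kb), chromosome 11 (415 over 31.6 kb) and chromosome 18 (412 over 39.8 kb), and the Eomes run was the fifth with 396 tags. The next, on chromosome 14, had 344 tags over 11.2 kb, a shorter stretch than the 12.0 kb at Eomes. Another run of 7 on chromosome 9, from 35232033 to 35252159, had 246 tags and no Neurog2 peak. With gaps of up to 20 kb the run at Eomes grew to 9 peaks, from 118364273 to 118397192, and took in the peak of the highest fold change. At that setting 7 runs of the list held at least 9 peaks and 3 held more.

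The window was then set against the rest of chromosome 9, with its crowding known beforehand. The chromosome was tiled into 295 windows of 400 kb between its first and last Tbr2 peak. These windows held a median of 2.00 Tbr2 peaks (mean 2.63), 78 of them held none, and 291 held fewer than the Eomes window. Windows with at least 13 were 4 in number, 1.36%. The fullest, 35000000 to 35400000, had 15 Tbr2 peaks, of which 1 met a Neurog2 peak. The windows 57800000 to 58200000 and 49400000 to 49800000 had 13 each, as did that of Eomes. Over the 5956 windows of all autosomes 29 held more than 13, up to 21. The counts are listed peaks, and each depends on where the authors' caller split or ended a peak.

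**Figure D4:**
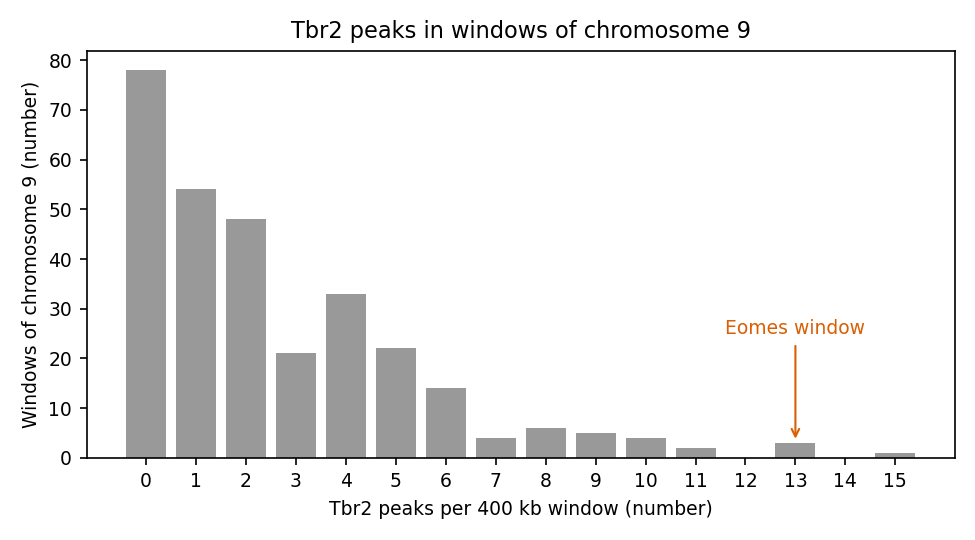
Number of chromosome 9 windows of 400 kb (y axis) that hold each number of Tbr2 peaks (x axis). The arrow marks the column of 13 peaks, which holds 3 windows including that of Eomes, and 1 window holds 15.

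Windows equal in number differed in how the peaks were arranged. The tags in Tbr2 peaks summed to 889 in the Eomes window, 967 in that at 57800000, 609 in that at 49400000 and 671 in the fullest one, against a median of 69.0 over the chromosome. The highest fold change in the Eomes window, 57.3, compared with 25.94, 42.05 and 15.46 in these others. The longest run at gaps of up to 10 kb was 7 peaks at Eomes and in the fullest window, and 2 and 3 in the windows at 57800000 and 49400000. Neurog2 peaks numbered 3 in the Eomes window, 5 at 57800000, 3 at 49400000 and 1 in the fullest window. When 100 kb windows were centred on the gene, the 9 Tbr2 peaks at Eomes were more than in any other of the 1185 windows of chromosome 9. That centring keeps the peaks at Eomes together, while the grid can split clusters elsewhere, and no shifted grid of this size was made. For Neurog2, 15 of 274 windows of 400 kb on the chromosome held at least 3 peaks and 181 held none.

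Listed peaks also lay just outside the window. The first Tbr2 peak beyond the upstream edge, 24.3 kb outside at 118175352 to 118176047, had 48 tags and a fold change of 19.85. The first beyond the downstream edge, 2.55 kb outside at 118602301 to 118602807, had 26 tags and a fold change of 8.98. Of the members, the outermost lay 28.0 kb inside the upstream and 121 kb inside the downstream edge. The nearest Neurog2 peaks outside were 43.8 kb beyond the upstream edge, with 73 tags and a fold change of 18.25, and 211 kb beyond the downstream edge, with 16 tags and a fold change of 9.97.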

How the data were processed

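Peaks were read from 1 deposited list each for Tbr2 and Neurog2. The input library was not analysed here. Bowtie 0.12.3 (a read aligner), MACS 1.4 (a peak caller) and mm9 are named in the submitters' processing notes, and per the file headers the tracks came from the GeneProf platform. How these tools were set, how duplicates were handled and which control served for calling is not given in the sources used here. The fold change (a ratio), FDR, p-value and tag count of each peak are the authors' values, written as text in the deposited files. The deposited score column is 750 for every peak and was not used. The weakest listed p-value was 9.98e-06 for Tbr2 and 8.65e-07 for Neurog2, so the lists end at different limits.

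Members, overlaps (at least 1 bp), runs (gaps of up to 10 kb) and windows were computed in Python 3.11.15 with numpy 2.4.6, and tested on simulated peaks. The exact interval came from scipy 1.17.1 and plots from matplotlib 3.10.9. Windows were tiled outwards from the Eomes window. Percentages of a list are peaks below the member's value, and ties count as not below. Coordinates are mm9, counted from 1. Distances use a gene start known to 1 kb. Named features were Eomes, all members, neighbouring genes, and the fullest windows and runs. The nearest protein-coding genes and the TATATAA and TATAAA motifs were added after values were seen. Members, lists and settings were chosen with earlier results of these data known, and the crowding of Tbr2 peaks at this place was among them. Alternatives changed the thresholds, the overlap rule, the window grid and the gap.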

Additional observations from a re-analysis of the deposited data

How the results depend on the processing

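The number of Tbr2 peaks in the window fell from 13 to 8 at a p-value of at most 1e-10 and to 5 at a fold change of at least 10. The run at the gene fell from 7 to 4 peaks at that p-value. By construction these settings keep fewer peaks. The 3 peaks lost from the run have p-values above that limit. The window still held more such peaks than 98.6% of chromosome 9 windows, with 8 peaks where the highest was 9. The share of chromosome 9 windows below that of Eomes was 99.9% with 100 kb windows centred on the gene, and 97.5% to 99.0% over the other 6 alternatives on that chromosome. Among windows of all autosomes it was 99.3%. Limited to the 9 members within 50 kb of the gene body, the median fold change was 8.65, the median number of tags 36.0 and the median width 725 bp. Counts of Neurog2 peaks were 3 in each setting, and overlaps with Tbr2 peaks were 3, or 4 when a gap of up to 500 bp was allowed. The overlaps were not recounted at the stricter p-value. In the authors' list the Tbr2 peak of the shared site nearest to the gene has a p-value of 2.14e-09, which would not pass it. Those of the pair farther upstream, 1.01e-72 and 1.00e-13, would. With 1 library per factor, no replicate could be left out. No paired analysis was possible because each group has 1 sample. Depth is unknown, so a place without a listed peak is not shown to be unbound.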

Other observations

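The deposited FDR did not follow the p-value at every step among the members. The Tbr2 peak 159.0 kb upstream of Eomes had a p-value of 1.01e-72 and an FDR of 0.0018, whereas its neighbour 149.7 kb upstream had a p-value of 1.00e-13 and an FDR of 0.0002. Of the 78 pairs of members, 16 had the larger FDR at the smaller p-value. Over the whole Tbr2 list the median FDR was 0.0015 for the 833 peaks with a p-value from 1e-100 to below 1e-50, and 2.00e-04 for the 4905 peaks from 1e-25 to below 1e-10. The ends of the list kept the order of the p-value. There the median FDR was 0 for the 254 peaks below 1e-100, and 0.0052 for the 6626 peaks from 1e-10 to below 0.0001. Members were therefore ranked by p-value, fold change and tags, and a limit set on the FDR would order them differently.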
